A study of Mus musculus with 12 samples.

Results

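TCRBV19-01 is the mouse TCRβ variable gene Trbv19, named Tcrb-V6 in older nomenclature and known as Vβ6 in antibody staining. The analysis took every rearrangement assigned to this gene in 12 TCRβ sequencing libraries, which were 21084 of 288925 rearrangements. Of these, 15547 were productive (in frame and without a stop codon), 5437 were out of frame and 100 held a stop codon. RefSeq places Trbv19 on chromosome 6 of GRCm38.p6, at chr6:41178589-41179048, as a V segment of 460 bases.

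CD8+ T cells of the spleen were divided into CD27hi CX3CR1-, CD27lo CX3CR1- and CX3CR1+ subsets, and CD8+ TILs formed the fourth group. Each of the 4 groups had 1 library per experiment, and the 3 experiments are called A, B and C. CX3CR1- and CX3CR1+ are the names used in the paper, where the sample labels write CX3CR1 low and high. All mice were female C57BL/6, 7 to 10 weeks old by the main methods, and bore tumors of MC38, a mouse colon adenocarcinoma line. Every group received anti-CTLA-4 and anti-PD-L1 antibodies and was harvested 2 weeks after therapy began, so that no untreated group was compared. An experiment used 10 mice, so a library was regarded as pooled cells, and no p-value measures the spread between animals. Exact permutation within experiments takes the 3 experiments as replicates. The edgeR p-values rest on a spread estimated from all 12 libraries and shared across V genes or V-J pairs. They can therefore lie far below the smallest value that permutation of 3 experiments allows. Splenic subsets were sorted by flow cytometry, whereas TILs were enriched by magnetic selection on CD8a, and the tissue and the method of isolation cannot be told apart. The files hold rearranged DNA and no expression data, and the purity of the subsets was not tested.

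A TCRβ chain is assembled in the thymus by joining 1 V, 1 D and 1 J gene, with bases trimmed and added at the joints. The joined region encodes CDR3, the loop that lies over the peptide in most TCR complexes, while the V gene also supplies CDR1 and CDR2, which mostly contact the MHC molecule. CX3CR1, a chemokine receptor, marks effector-differentiated CD8+ T cells, and CD27, a costimulatory receptor, is lost as these cells differentiate. Out-of-frame rearrangements make no receptor and are carried along by cells whose other allele is productive, so that they record V gene use before selection on the protein.

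The sequences below are the CDR3 coding strands of TCRBV19-01 rearrangements that were among the 3 largest of a CX3CR1+ or TIL library, chosen to show a pair with a shared RDWGV stretch, 4 that end in YAEQFF, and a pair that encode one CDR3 with different bases. Each is read 5′ to 3′ from the conserved cysteine and stops 1 codon before the last phenylalanine, where the deposited read ends. Capitals mark the bases that the authors' files assign to neither the V nor the J gene, D gene bases included.
RDWGV with TCRBJ02-01 (TILs, experiment A): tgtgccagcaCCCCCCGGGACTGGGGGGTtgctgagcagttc
RDWGV with TCRBJ02-07 (TILs, experiment B): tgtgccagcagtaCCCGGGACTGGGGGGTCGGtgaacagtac
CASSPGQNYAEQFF (TILs, experiment C): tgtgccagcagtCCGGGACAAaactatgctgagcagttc
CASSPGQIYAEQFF (TILs, experiment B): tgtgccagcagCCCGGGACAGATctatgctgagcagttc
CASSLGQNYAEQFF (TILs, experiment A): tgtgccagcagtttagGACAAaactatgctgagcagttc
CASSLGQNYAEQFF (TILs, experiment C): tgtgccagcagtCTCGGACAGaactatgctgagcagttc
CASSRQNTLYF (TILs, experiment A): tgtgccagcagtaGGcaaaacaccttgtac
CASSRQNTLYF (TILs, experiment B): tgtgccagcagtCgtcaaaacaccttgtac
Left untrimmed, the gene's own end reads on into isoleucine, and CDR3s that began with CASSI made up 27.8% to 36.8% of productive TCRBV19-01 rearrangements per library against 0.0711% to 0.313% of those of all other V genes, which bears on the V gene assignment as a whole and not on each rearrangement. The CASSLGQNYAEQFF sequence of experiment A was recorded with 0 trimmed V bases, yet its lower-case V part encodes leucine at that place. Its V assignment was not tested.

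TCRBV19-01 took a larger part of the productive repertoire in CX3CR1+ T cells and in TILs than in the CX3CR1- subsets when each unique rearrangement was counted once. Its share of unique productive rearrangements was 7.26%, 7.36% and 7.48% in the CD27hi CX3CR1- libraries (experiments A, B and C), and 7.44%, 7.68% and 7.22% in the CD27lo CX3CR1- libraries. The CX3CR1+ libraries had 8.50%, 8.21% and 8.08%, and the TILs 9.20%, 9.29% and 10.6%. The 4 groups kept this order in their means, and neither the CX3CR1+ values nor the TIL values overlapped with those of the CX3CR1- subsets. The means were 7.37% ± 0.111 in CD27hi CX3CR1-, 7.45% ± 0.230 in CD27lo CX3CR1-, 8.26% ± 0.217 in CX3CR1+ T cells and 9.69% ± 0.775 in TILs (SD, n = 3 each).

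By edgeR's quasi-likelihood test across the 24 V genes tested, with the experiment as a block, TCRBV19-01 rose in TILs relative to the mean of the CX3CR1- subsets by 0.41 on the log2 scale (SE 0.0776, adjusted p = 0.000436). This comparison called 12.5% of V genes, and the others called were TCRBV05-01, which was higher by 0.36, and TCRBV12-01, which fell by 0.47. In CX3CR1+ T cells TCRBV19-01 rose by 0.15 (SE 0.0429, edgeR adjusted p = 0.0332), and it was the single V gene called of 24 (4.17%). This smaller difference was not called when experiment A or experiment B was left out (edgeR adjusted p = 0.294 and 0.144). It was 0.27 among rearrangements of at least 2 templates (edgeR adjusted p = 0.0175) and 0.25 at equal depth (exact permutation p = 0.037). Exact permutation within experiments gave p = 0.037 for both contrasts, two-sided and the smallest that 3 experiments allow. Between TILs and CX3CR1+ T cells the log2 difference of 0.25 (SE 0.0830) was not called by edgeR (adjusted p = 0.064, 4.17% of V genes called), although TILs were higher in 3 of 3 experiments. The same difference was called by DESeq2 (adjusted p = 0.0144), by edgeR without the replicate block (adjusted p = 0.0456) and by edgeR without experiment A (adjusted p = 0.0422). CD27lo and CD27hi CX3CR1- T cells differed by 0.01 (SE 0.0376, edgeR adjusted p = 0.892, 0% called).

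**Figure D1:**
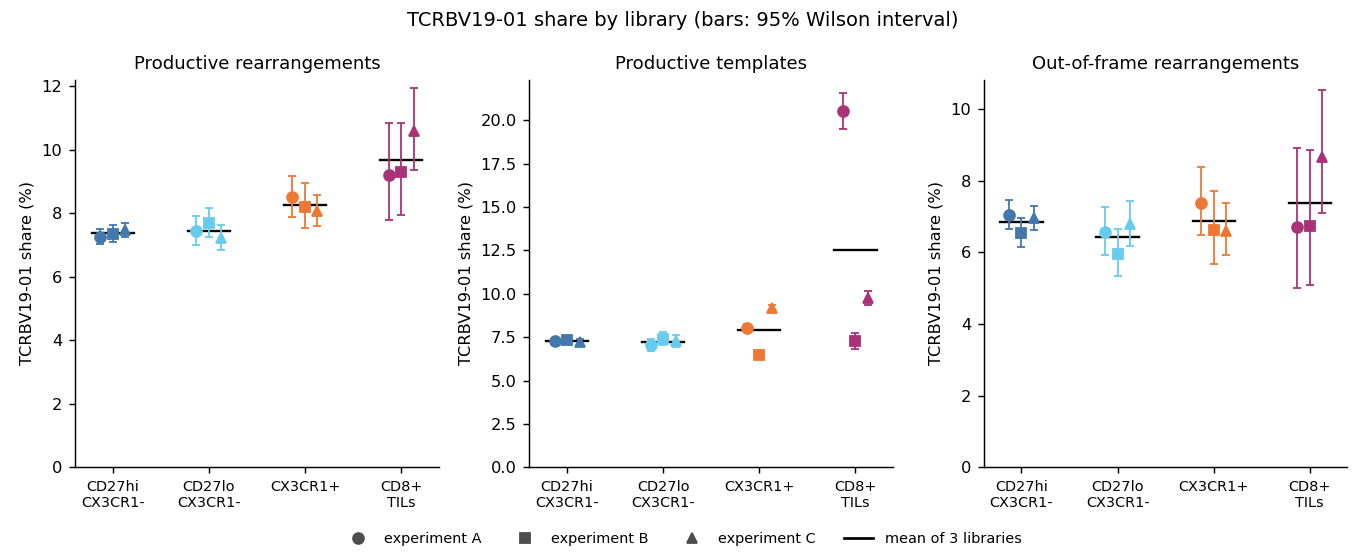
TCRBV19-01 share (%) of unique productive rearrangements, of productive templates and of unique out-of-frame rearrangements, with 1 point per library, its 95% Wilson interval and the group mean as a line. The first panel rises from about 7.37% in CD27hi CX3CR1- cells to 9.69% in TILs, whereas in the second panel the TIL library of experiment A stands alone at 20.5%.

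The libraries differed in size, from 5893 to 113660 productive templates, where a template is the estimated copy of a rearrangement in the input DNA. TCRBV19-01 was represented by 125 to 4089 unique productive rearrangements per library, with the fewest in the TILs of experiment A. Drawn down to 5893 productive templates each, the libraries gave means of 7.31% in CD27hi CX3CR1-, 7.30% in CD27lo CX3CR1-, 8.70% in CX3CR1+ T cells and 10.0% in TILs. The 3 V genes whose share of unique productive rearrangements was most like that of TCRBV19-01 across the 12 libraries were TCRBV05-01 (Pearson r = 0.739 of the log2 shares), TCRBV23-01 (r = 0.594) and TCRBV03-01 (r = 0.561) of 22 compared, a description over libraries that share experiments.

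Counted by templates, single rearrangements made up a sizeable part of the TCRBV19-01 share in CX3CR1+ T cells and TILs. TCRBV19-01 held 7.26%, 7.34% and 7.22% of productive templates in the CD27hi CX3CR1- libraries and 7.04%, 7.42% and 7.28% in the CD27lo CX3CR1- libraries (experiments A, B and C). In that order it held 8.06%, 6.48% and 9.19% in CX3CR1+ T cells and 20.5%, 7.26% and 9.78% in TILs. TILs and CX3CR1+ T cells thus spread widely between experiments, and in experiment B the TILs lay within the range of the CX3CR1- libraries and the CX3CR1+ T cells below it. The TIL mean was 12.5% ± 7.05 (SD, n = 3), and its log2 difference of 0.70 (SE 0.320) from the CX3CR1- subsets was not called by edgeR (adjusted p = 0.123, 20.8% of V genes called), whereas DESeq2 called it (adjusted p = 0.0144). With the largest TCRBV19-01 rearrangement of each library left out, the difference was -0.02 (edgeR adjusted p = 0.992), and without experiment A it was 0.20. The rearrangement left out held 15.3% to 66.2% of TCRBV19-01 templates in TILs and 18.4% to 20.3% in CX3CR1+ T cells. In the CX3CR1- libraries it held at most 1.55%, and the largest of other V genes were kept. Leaving it out therefore lowers TILs and CX3CR1+ T cells by design. In CX3CR1+ T cells the difference was 0.11 (SE 0.320, edgeR adjusted p = 0.744, 0% called), and it turned to -0.17 without the largest rearrangements.

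Out-of-frame rearrangements gave the use of the gene before selection on the protein. The out-of-frame share of TCRBV19-01 was 7.05%, 6.54% and 6.96% in CD27hi CX3CR1-, 6.57%, 5.95% and 6.78% in CD27lo CX3CR1-, 7.38%, 6.61% and 6.61% in CX3CR1+ T cells, and 6.70%, 6.73% and 8.68% in TILs. It lay below the productive share in 12 of 12 libraries. In a model of both kinds of rearrangement the productive share was higher by 0.17 on the log2 scale (SE 0.0311, edgeR adjusted p = 1.29e-05), with 96.2% of 26 V genes called in either direction, so that a call says little about this gene. The difference was 0.35 with TMM scaling (edgeR adjusted p = 8.47e-09) and turned to -0.043 when templates were counted (edgeR adjusted p = 0.898). Exact sign flips over the 12 libraries gave p = 0.000488, and over the 3 experiments p = 0.25, the smallest 3 experiments allow. The excess of productive over out-of-frame use was 0.10 (SE 0.0321) in CD27hi CX3CR1-, 0.20 (SE 0.0516) in CD27lo CX3CR1-, 0.27 (SE 0.0630) in CX3CR1+ T cells and 0.38 (SE 0.118) in TILs, on the log2 scale. All 4 were called by edgeR (adjusted p = 0.00678, 0.00182, 0.00101 and 0.020), as were 92.3%, 88.5%, 76.9% and 46.2% of V genes in these groups. The increase of this excess from the CX3CR1- subsets to TILs, 0.22 (SE 0.123), was not called by edgeR (adjusted p = 0.329), nor was that to CX3CR1+ T cells, 0.11 (SE 0.0705, adjusted p = 0.56), with 0% of V genes called in both. Among out-of-frame rearrangements alone, the log2 difference from the CX3CR1- subsets was 0.19 (SE 0.116, edgeR adjusted p = 0.496, 4% called) in TILs and 0.03 (SE 0.0668, adjusted p = 0.98, 0% called) in CX3CR1+ T cells. In TILs, 17.4% of out-of-frame and 2.00% of productive TCRBV19-01 rearrangements lay 1 base change from a far larger one, as described below. Without such neighbours the excess was 0.48 (SE 0.129) in TILs and 0.32 (SE 0.0664) in CX3CR1+ T cells. Its increases from the CX3CR1- subsets were then 0.33 (SE 0.134) and 0.17 (SE 0.0740), again not called by edgeR (adjusted p = 0.303 and 0.35).

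By templates the out-of-frame share was uneven too. It was 25.6% in the TILs of experiment B and 18.2% in those of experiment C, but 5.50% in those of experiment A. The first of these libraries held 712 templates of a single out-of-frame TCRBV19-01 and TCRBJ02-05 rearrangement, which was also found with 255 templates in CX3CR1+ T cells of that experiment. The second held 494 templates of a TCRBJ01-02 rearrangement, found with 2082 templates in the CX3CR1+ library of experiment C. Each was detected in the CD27lo CX3CR1- library of its experiment, with 15 and 6 templates, and in neither case in the CD27hi CX3CR1- library. The log2 difference of the out-of-frame template share between TILs and CX3CR1- subsets was 1.24 (SE 0.441, edgeR adjusted p = 0.0577, 24% called).

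Counted as unique rearrangements, the J genes joined to TCRBV19-01 differed between groups by edgeR at 1 gene, TCRBJ02-01. The germline end of this J gene encodes the residues NYAEQF, in lower case at the end of 3 of the sequences above. TCRBJ02-01 made up 13.0%, 13.5% and 13.2% of unique productive TCRBV19-01 rearrangements in the CD27hi CX3CR1- libraries (experiments A, B and C) and 13.4%, 12.3% and 13.0% in the CD27lo CX3CR1- libraries. In CX3CR1+ T cells the values were 18.8%, 20.3% and 17.4%, and in TILs they were 24.8%, 38.2% and 34.8%. The 3 levels did not overlap. Among all other V genes, TCRBJ02-01 made up 12.3% ± 0.194 in CD27hi CX3CR1-, 12.1% ± 0.132 in CD27lo CX3CR1-, 13.2% ± 0.381 in CX3CR1+ T cells and 12.2% ± 0.323 in TILs (SD, n = 3 each).

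Across 236 V-J pairs, the TCRBV19-01 and TCRBJ02-01 pair rose in TILs relative to the CX3CR1- subsets by 1.75 on the log2 scale (SE 0.146, edgeR adjusted p = 2.80e-29), and 2.97% of pairs were called. It also rose in CX3CR1+ T cells, by 0.66 (SE 0.0948, edgeR adjusted p = 1.64e-09, 1.69% called), and was higher in TILs than in CX3CR1+ T cells by 1.10 (SE 0.150, edgeR adjusted p = 1.13e-10, 0.424% called). Exact permutation of the pair's share within experiments gave p = 0.037 for each contrast with the CX3CR1- subsets and p = 0.25 for TILs against CX3CR1+ T cells, the smallest values possible. Of the 12 TCRBV19-01 pairs tested, it was the 1 called in each of these contrasts, and 0 were called between CD27lo and CD27hi CX3CR1- T cells by edgeR (1.27% of all pairs called, 1 TCRBV19-01 pair at an unadjusted p under 0.05, 0 by DESeq2).

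The 11 other J partners lay between -1.36 and 0.46 in TILs against the CX3CR1- subsets, with a lowest edgeR adjusted p of 0.0968 for TCRBJ01-03, which made up 1.40% ± 0.647 of TCRBV19-01 rearrangements in TILs and 5.17% ± 0.469 in CD27hi CX3CR1- T cells (SD, n = 3). TCRBJ02-07, the most used partner in the CX3CR1- subsets at 19.1% ± 0.626 in CD27hi and 17.9% ± 0.481 in CD27lo CX3CR1- T cells, made up 13.2% ± 1.32 in TILs. Counted by templates, TCRBJ02-01 rearrangements held 84.8%, 32.9% and 58.3% of TCRBV19-01 templates in the TILs of experiments A, B and C, and 11.4% to 12.2% in the 6 CX3CR1- libraries. In the TILs of experiment A a single rearrangement, the first sequence above, held 66.2% of TCRBV19-01 templates. The pair was not fitted without it. The template difference was called in TILs (log2 3.00, SE 0.550, edgeR adjusted p = 0.00405, 43.7% of pairs called) and not in CX3CR1+ T cells (1.20, SE 0.533, adjusted p = 0.10, 27.4% called). By templates 4 TCRBV19-01 pairs were called in TILs against the CX3CR1- subsets. In CX3CR1+ T cells 1 was called, with a J gene other than TCRBJ02-01 (edgeR adjusted p = 0.0258).

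**Figure D2:**
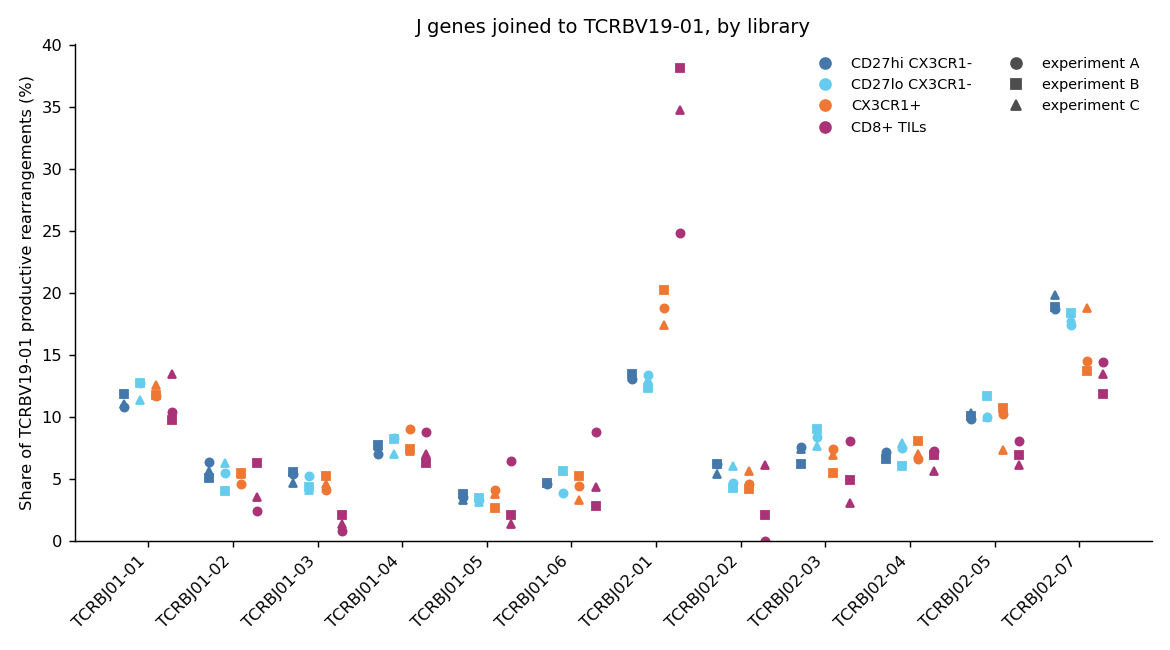
Share (%) of unique productive TCRBV19-01 rearrangements joined to each J gene, with 1 point per library, coloured by group and shaped by experiment. TCRBJ02-01 separates the CX3CR1- libraries (12.3% to 13.5%), the CX3CR1+ libraries (17.4% to 20.3%) and the TILs (24.8% to 38.2%), and TCRBJ01-03 is lower in the TILs (mean 1.40%), a difference that was not called.

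With TCRBJ02-01 set aside, the remaining TCRBV19-01 rearrangements made up 6.39% ± 0.0919 of all productive rearrangements in CD27hi CX3CR1-, 6.49% ± 0.229 in CD27lo CX3CR1-, 6.71% ± 0.183 in CX3CR1+ T cells and 6.52% ± 0.674 in TILs (SD, n = 3 each). The pair itself made up 0.976% ± 0.0260, 0.958% ± 0.0308, 1.55% ± 0.133 and 3.17% ± 0.773 in the same order. This split was made after the values were seen and was not tested.

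Out-of-frame joins of the same genes were also more frequent in TILs, where TCRBJ02-01 made up 35.7%, 21.7% and 18.9% of out-of-frame TCRBV19-01 rearrangements in experiments A, B and C, against 9.93% to 13.9% in the CX3CR1- libraries. The pair rose by 1.17 on the log2 scale (SE 0.278, edgeR adjusted p = 0.00638, 1.38% of 217 pairs called). These were 42 rearrangements in all, and 20 of them (47.6%) differed by 1 base change from a rearrangement of the same library with at least 10 times as many templates. The same held for 8 of 166 (4.82%) of the productive pair in TILs, for 27 of 94 (28.7%) of the out-of-frame and 9 of 368 (2.45%) of the productive pair in CX3CR1+ T cells, and for 0 of 398 and 0 of 1321 in CD27hi CX3CR1- T cells. Without such neighbours the out-of-frame difference was 0.39 (SE 0.345, edgeR adjusted p = 0.827), and the productive differences were 1.71 (SE 0.149) in TILs and 0.64 (SE 0.0954) in CX3CR1+ T cells (edgeR adjusted p = 6.59e-27 and 7.34e-09).

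CDR3s of TCRBV19-01 and TCRBJ02-01 often had 14 residues, glycine at the sixth and the ending YAEQFF, written CASxxGxxYAEQFF, where x is any residue. This pattern was noticed in the named sequences and is described without a test. Those sequences were chosen for their size in CX3CR1+ and TIL libraries, so a higher share in these groups is in part built in. It fitted 14.4%, 21.5% and 18.7% of unique productive TCRBV19-01 rearrangements in the TILs of experiments A, B and C and 6.91%, 7.84% and 4.86% in CX3CR1+ T cells. The CD27lo CX3CR1- libraries had 2.28%, 2.92% and 2.32%, and the CD27hi CX3CR1- libraries 1.62%, 1.57% and 1.42%. The 4 groups were separate, in the order CD27hi, CD27lo, CX3CR1+ and TILs. Among other V genes the pattern made up 0.717% ± 0.0894 in CD27hi CX3CR1-, 0.685% ± 0.0571 in CD27lo CX3CR1-, 1.06% ± 0.0641 in CX3CR1+ T cells and 1.48% ± 0.426 in TILs (SD, n = 3 each).

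Within TCRBV19-01 and TCRBJ02-01 rearrangements, 58.1%, 56.4% and 53.8% fitted the pattern in TILs of experiments A, B and C, 36.8%, 38.7% and 28.0% in CX3CR1+ T cells, and 10.7% to 23.8% in the CX3CR1- libraries. By templates the family held 14.6%, 25.5% and 49.3% of TCRBV19-01 templates in TILs, or 3.00%, 1.85% and 4.82% of all productive templates. In CX3CR1+ T cells it held 0.608%, 0.665% and 1.97% of productive templates, and at most 0.292% in a CX3CR1- library. Left out, it lowered the TCRBV19-01 share of unique productive rearrangements in TILs to 7.98%, 7.44% and 8.78%, and in CX3CR1+ T cells to 7.96%, 7.61% and 7.71%, against 7.07% to 7.48% in the CX3CR1- libraries. The CX3CR1+ libraries thus stayed above the CX3CR1- range without the family, and of the TILs only those of experiment B fell within it. As the pattern came from sequences of CX3CR1+ T cells and TILs, a fall in these groups is likewise in part built in.

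**Figure D3:**
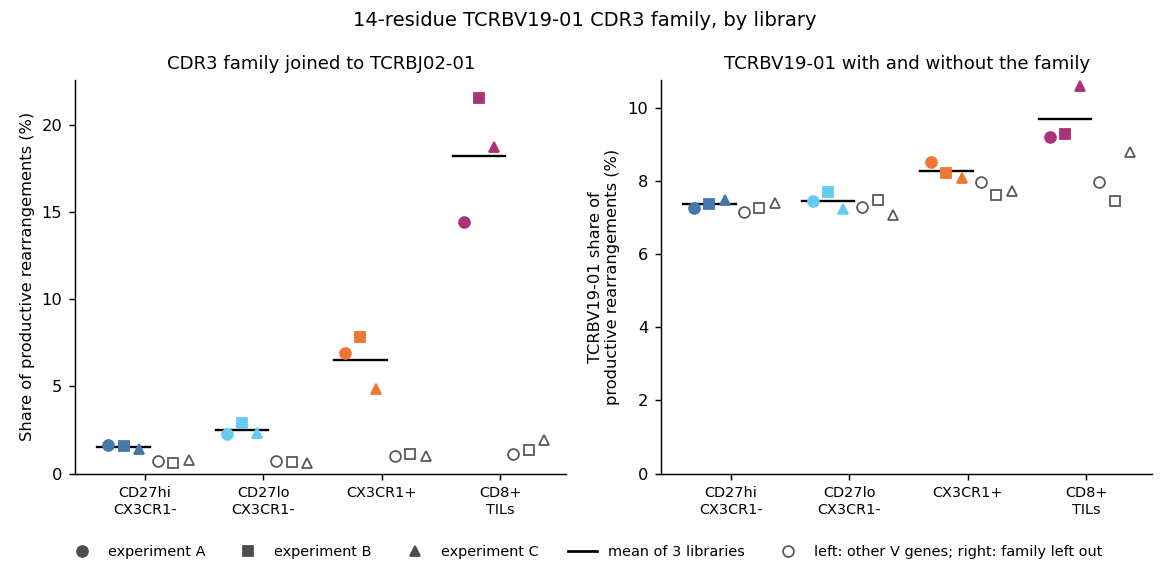
Left, share (%) of unique productive rearrangements that fit the 14-residue CDR3 pattern among TCRBV19-01 (filled) and among all other V genes (open), 1 point per library. Right, TCRBV19-01 share (%) of productive rearrangements with all rearrangements (filled) and with the family left out (open), where the TIL values move from between 9.20% and 10.6% to between 7.44% and 8.78%.

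The mean CDR3 length of unique productive TCRBV19-01 rearrangements was 41.4, 41.4 and 41.3 nucleotides in the CD27hi CX3CR1- libraries (experiments A, B and C), and 41.2, 41.3 and 41.3 in the CD27lo CX3CR1- libraries. In CX3CR1+ T cells it was 41.4, 41.5 and 41.6, and in TILs 41.6, 42.1 and 42.03. TILs were the longest group in 3 of 3 experiments, and CX3CR1+ T cells overlapped with the CX3CR1- subsets in experiment A. Averaged together, CX3CR1+ T cells and TILs were longer than the CX3CR1- subsets by 0.38 ± 0.165 nucleotides (SD, n = 3 experiments; two-sided exact permutation p = 0.0185). The difference was 1.24 ± 0.257 when rearrangements of at least 2 templates were kept (p = 0.00926, exact permutation). The means were then 40.2 in CD27hi and 40.4 in CD27lo CX3CR1-, 41.2 in CX3CR1+ T cells and 41.9 in TILs. Most of the change was thus a fall in the CX3CR1- means. With weighting by templates the difference was 0.46 ± 0.497 (exact permutation p = 0.537). TILs then averaged 42.6, but CX3CR1+ T cells, at 40.5, lay below the CX3CR1- means of 41.1, though not in experiment B (41.3). Without TCRBJ02-01 the difference was 0.28 ± 0.332 (exact permutation p = 0.111). CDR3s of 42 nucleotides, the length of the family above, made up 33.9% ± 0.214 in CD27hi CX3CR1-, 33.0% ± 1.37 in CD27lo CX3CR1-, 37.0% ± 0.286 in CX3CR1+ T cells and 42.5% ± 2.61 in TILs (SD, n = 3), while those of other V genes made up 30.1% to 30.3% on average in every group. The number of bases inserted at the joints was 3.66 ± 0.0550 in CD27hi CX3CR1- and 3.72 ± 0.276 in TILs, within the spread between experiments.

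Productive TCRBV19-01 rearrangements were expanded in CX3CR1+ T cells and TILs. Clonality, which is 0 for an even repertoire and nears 1 when a few rearrangements dominate, was 0.316, 0.327 and 0.396 in CX3CR1+ T cells (experiments A, B and C) and 0.592, 0.354 and 0.272 in the TILs. In the 6 CX3CR1- libraries it was at most 0.0194. Every CX3CR1+ and TIL library was thus above every CX3CR1- library, and the difference of 0.363 ± 0.0678 (SD, n = 3) had an exact permutation p of 0.00926, two-sided and the smallest for this design. Rearrangements at or above 0.1% of productive templates held 55.6%, 51.1% and 62.7% of TCRBV19-01 templates in CX3CR1+ T cells and 85.8%, 68.1% and 71.4% in TILs. They numbered 13, 8 and 13 in CX3CR1+ T cells and 14, 9 and 24 in TILs, with 1 in the CD27lo CX3CR1- library of experiment A and 0 in the other CX3CR1- libraries, where the largest TCRBV19-01 rearrangement had between 10 and 21 templates. The difference was 65.5 percentage points (SD 5.35, n = 3, exact permutation p = 0.00926).

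Other V genes were expanded in the same groups. Relative to all other V genes of the same library, the difference in clonality was 0.0899 ± 0.102 (exact permutation p = 0.194) and that in the expanded share was -1.51 percentage points (SD 10.4, exact permutation p = 0.852), so that expansion beyond that of other V genes was not detectable here. TCRBV19-01 made up 9.09%, 6.35% and 9.03% of the expanded rearrangements of the CX3CR1+ libraries and 12.2%, 7.03% and 18.3% of those of the TILs.

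**Figure D4:**
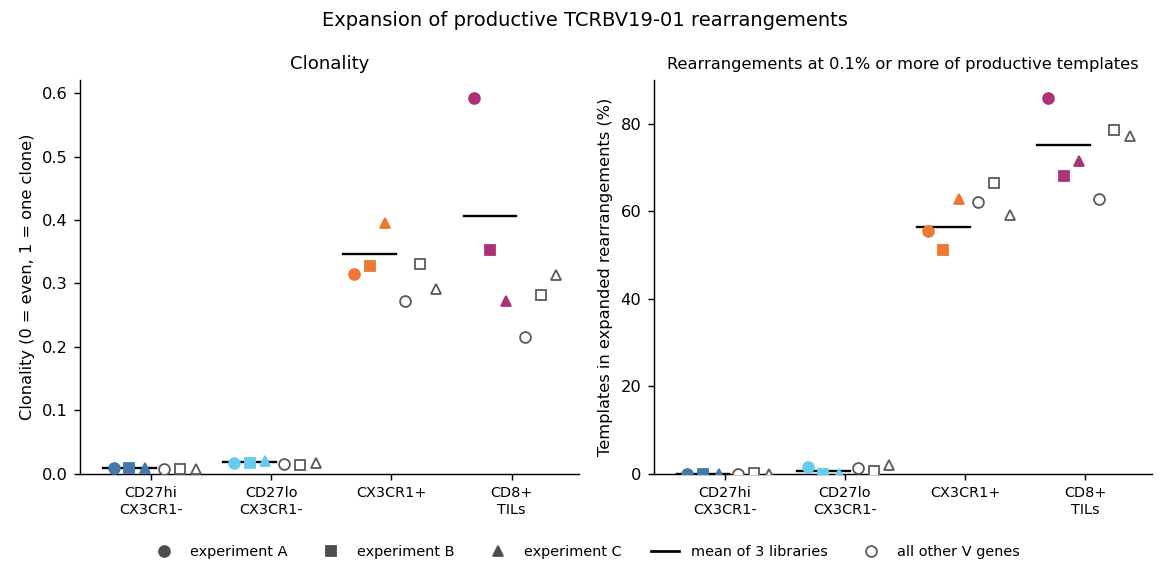
Clonality and the share (%) of templates in rearrangements at or above 0.1% of productive templates, for TCRBV19-01 (filled) and all other V genes (open), 1 point per library, with lines for the TCRBV19-01 means. Both measures were near 0 in the CX3CR1- subsets, and both were higher for TCRBV19-01 and for other V genes in CX3CR1+ T cells and TILs. In experiment A TILs the filled points were higher (clonality 0.592 against 0.216, expanded share 85.8% against 62.9%), whereas the expanded share was lower for TCRBV19-01 in experiment B, at 51.1% against 66.5% in CX3CR1+ T cells and 68.1% against 78.6% in TILs.

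The largest TCRBV19-01 rearrangement of the TILs of experiment A, the first sequence above, joined to TCRBJ02-01 and had 801 templates, which were 13.6% of productive templates (Wilson 95% interval 12.7% to 14.5%) and 66.2% of the TCRBV19-01 templates. It ranked first of all productive rearrangements of that library and had 404 templates in the matching CX3CR1+ library, 1 in CD27lo CX3CR1- and 2 in CD27hi CX3CR1- T cells. The second sequence above, with TCRBJ02-07, was the largest of the TILs of experiment B, with 256 templates or 2.07% (1.83% to 2.33%), and had 311 templates in the CX3CR1+ library and 5 in the CD27lo CX3CR1- library. These came from different experiments and different J genes and share RDWGV. Both were assigned the D gene TCRBD02-01, with 7 inserted bases each. CDR3s with RDWGV at this place, a pattern also seen afterwards, held 66.5%, 30.9% and 0.342% of TCRBV19-01 templates in the TILs of experiments A, B and C and 9.10%, 10.9% and 0.182% in CX3CR1+ T cells, in 2 or 3 rearrangements per library. Other V genes had the pattern too, in 5, 1 and 5 rearrangements of the TILs and 7, 6 and 6 of CX3CR1+ T cells. It made up 0.245% ± 0.167 and 0.0936% ± 0.0321 of their unique productive rearrangements. For TCRBV19-01 these shares were 1.70% ± 0.610 and 0.400% ± 0.227 (SD, n = 3).

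In the TILs of experiment C the largest was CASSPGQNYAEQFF, with 314 templates or 1.499% (1.34% to 1.67%) and 316 templates in the CX3CR1+ library of that experiment. The third largest in experiment B, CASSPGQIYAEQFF, had 100 templates in TILs and 109 in CX3CR1+ T cells. Both fit the 14-residue family, as do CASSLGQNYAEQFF rearrangements which had 65 templates in TILs in experiment A and 97 in experiment C. The largest of the CX3CR1+ libraries were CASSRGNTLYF with 856 templates in experiment A, a TCRBJ01-06 rearrangement with 609 in experiment B and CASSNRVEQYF with 2121 in experiment C, which had 0, 2 and 1 templates in the TILs.

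The 3 largest rearrangements of each CX3CR1+ and TIL library filled 18 places with 16 different rearrangements, of which 6 used TCRBJ02-01. All 9 places of the TILs were held by rearrangements that the matching CX3CR1+ library also held, and 6 of the 9 places of the CX3CR1+ libraries by rearrangements found in the TILs. None had more than 21 templates in a CX3CR1- library, but no TCRBV19-01 rearrangement had more there, so this bound does not depend on the choice. The 16 were chosen for their size in CX3CR1+ T cells and TILs, and those of other V genes were not counted in this way. Of the 16, 13 were found in a single experiment and 3 in more than 1, the exceptions being forms of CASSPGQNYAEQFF, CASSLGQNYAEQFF and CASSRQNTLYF.

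At the amino acid level, 14 TCRBV19-01 CDR3s of 12883 were found in both the CX3CR1+ and the TIL library of at least 2 experiments, and 9 of the 14 fit the family with TCRBJ02-01. The pattern was noticed in sequences that include some of these 14, so the 9 are in part a recount. The family made up 6.54% ± 1.52 of unique productive TCRBV19-01 rearrangements in CX3CR1+ T cells and 18.2% ± 3.59 in TILs (SD, n = 3). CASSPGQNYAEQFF held the largest mean share, 0.554% of productive templates over the 6 CX3CR1+ and TIL libraries, and was found in 10 of 12 libraries. It had 36, 74 and 1001 templates in the CX3CR1+ libraries (experiments A, B and C) and 4, 25 and 412 in the TILs. It was encoded by 9 nucleotide rearrangements, and 4 of them recurred between experiments. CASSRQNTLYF with TCRBJ02-04 followed at 0.437%, with 98, 487 and 1 templates in CX3CR1+ T cells and 25, 132 and 0 in TILs, from 4 nucleotide rearrangements. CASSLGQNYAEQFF, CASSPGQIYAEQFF and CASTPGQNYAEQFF came next, at 0.277%, 0.197% and 0.114%. The order rested on experiment C, without which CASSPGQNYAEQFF averaged 0.120% and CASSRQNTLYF 0.655% over the other 4 libraries. The set was defined by presence in these groups, and its size depends on depth.

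Of the TCRBV19-01 templates of TILs, 87.6%, 84.5% and 82.0% belonged to rearrangements that the CX3CR1+ library of their own experiment also held (A, B and C). The CD27lo CX3CR1- subset held the rearrangements of 78.9%, 69.1% and 46.9%, and the CD27hi CX3CR1- subset those of 69.3%, 23.7% and 53.7%. The CX3CR1+ value was the highest in 3 of 3 experiments, by 27.8 ± 12.8 percentage points over the mean of the CX3CR1- subsets (SD, n = 3), which did not pass the threshold (two-sided exact permutation p = 0.0741, or 0.0476 without the replicate block). With the splenic libraries drawn down to 18180 productive templates each, the difference was 38.3 ± 4.79 points (exact permutation p = 0.111). Counted as unique rearrangements, the CX3CR1+ subset held 33.6%, 38.2% and 48.7% of those of the TILs, the CD27lo CX3CR1- subset 11.2%, 16.0% and 14.3%, and the CD27hi CX3CR1- subset 10.4%, 13.2% and 18.3%, a difference of 26.3 ± 5.32 points (exact permutation p = 0.037, the smallest possible). Counted again by templates, the difference for TCRBV19-01 less that for all other V genes was -4.51 points (SD 15.4, exact permutation p = 0.852).

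**Figure D5:**
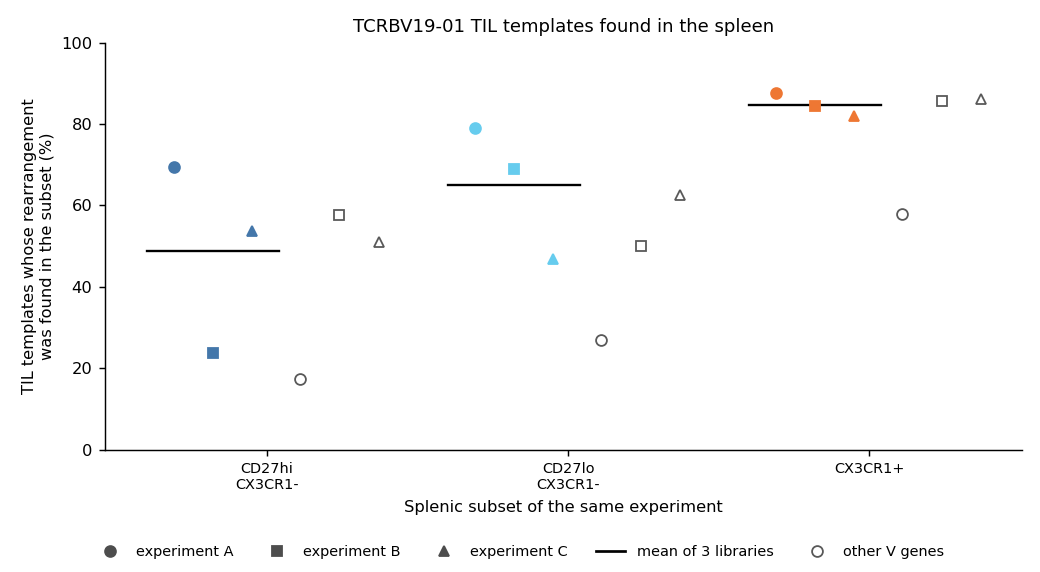
Share (%) of TIL templates whose nucleotide rearrangement was also found in each splenic subset of the same experiment, for TCRBV19-01 (filled, with the mean as a line) and for all other V genes (open). The CX3CR1+ values for TCRBV19-01 lie between 82.0% and 87.6%, and the values of the CX3CR1- subsets spread from 23.7% to 78.9%.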

How the data were processed

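The survey-level ImmunoSEQ kit was applied to genomic DNA of the 12 libraries, whose TCRβ amplicons were read on a NextSeq instrument and processed by the authors on the ImmunoSEQ platform, in 1 file per library. The labels name the build mm10, and the aligner is not given in the sources used here. The deposited template count is a whole number for each rearrangement and equals the estimated number of genomes in every row. The deposited fraction of templates entered no comparison. CDR3 lengths, inserted bases and V, D and J names were used as deposited, and 22 rearrangements without a V name were kept in the totals.

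Unique rearrangements and templates were counted per V gene and per V-J pair and compared with edgeR 4.0.16 (quasi-likelihood, library totals as size, no composition scaling, low counts filtered, experiment as block) in R 4.3.3, with Benjamini-Hochberg adjustment over all features tested and a threshold of 0.05. DESeq2 1.42.0 was an alternative. Single values were tested by two-sided exact permutation within experiments. The experiment pairs libraries because they came from the same mice: they shared 14.8% of TCRBV19-01 rearrangements of the smaller library within and 2.47% between experiments on average. Mean correlation of deviations in V use between same-experiment libraries was 0.00033. Functions were tested on simulated data. Wilson intervals and the floor of 3 templates cover counting error only. Python 3.11.15, numpy 2.4.6, pandas 2.3.3, scipy 1.17.1 and matplotlib 3.10.9 were used.

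Named items were TCRBV19-01 in every library, all J partners, the 3 largest productive rearrangements of each CX3CR1+ and TIL library, up to 5 CDR3s found in both groups of at least 2 experiments and the 3 V genes most alike. The gene, lists and tests were chosen with earlier results of these data known. The 1-base neighbours (10 times fewer templates than a rearrangement of at least 10 templates, first 6 bases of the read ignored) were added after the data were seen, as was leaving out TCRBJ02-01. Rearrangements with a stop codon entered no comparison.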

Additional observations from a re-analysis of the deposited data

Results flagged for a closer look

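TCRBV19-01 rearrangements with a stop codon were used in no comparison and lay above the limit of 3 templates that a count of 0 allows in 11 of 12 libraries. They had 7, 5 and 7 templates in CD27lo CX3CR1- T cells (A, B and C in turn), 28, 17 and 31 in the CD27hi CX3CR1- libraries, and 6, 81 and 14 in CX3CR1+ T cells. In TILs they had 18 templates in experiment B and 4 in experiment C, and 2 in experiment A, under that limit. The CX3CR1+ library of experiment B held 60 templates of a single rearrangement with TCRBJ02-05, which had 16 templates in the TILs of that experiment and 0 in the other libraries. The source of these templates was not tested.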

How the results depend on the processing

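Of 207 alternative values for 20 results, 168 kept their direction and side of the threshold, 18 lost a call, 7 gained one, 2 counts moved and 12 turned direction. The TIL rise in unique share kept its call in all alternatives (0.31 to 0.58 on the log2 scale). For TILs against CX3CR1+ T cells the unique share was called by DESeq2 (0.29) and without the replicate block (0.25), and leaving out 1 experiment gave 0.14 to 0.31. The CX3CR1+ unique rise was 0.13 to 0.17 when 1 experiment was left out, 0.27 with at least 2 templates and 0.25 at equal depth.

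CD27lo against CD27hi CX3CR1- turned to -0.083 with at least 2 templates, -0.0083 with amino acid clonotypes, -0.0013 at equal depth and ranged from -0.010 to 0.049 with 1 experiment left out. Its template share turned to 0.0031 with TMM and ranged from -0.014 to 0.014. The CX3CR1+ template difference was -0.170 without the largest rearrangements and ranged from -0.025 to 0.266, and that of TILs was -0.015 without them and 1.08 by DESeq2. The productive excess was -0.043 by templates, 0.35 with TMM and 0.247 (exact permutation p = 0.25) as a mean of each experiment.

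TCRBV19-01 J pairs called by templates were 4 for TILs against the CX3CR1- subsets and 0 for TILs against CX3CR1+ T cells, against 1 each by unique rearrangements. For CX3CR1+ T cells against the CX3CR1- subsets 1 pair was called in both ways, but by templates it was not that of TCRBJ02-01. CDR3 length was 0.463 weighted by templates and 0.285 without TCRBJ02-01, an alternative chosen after seeing the data, and 0.331 to 0.475 with 1 experiment left out. Relative to other V genes, clonality differed by 0.0899, the expanded share by -1.51 and the TIL sharing by -4.51. With 1 experiment left out clonality was 0.324 to 0.384, the expanded share 63.3 to 68.5 and the TIL sharing 22.6 to 34.9, where exact permutation cannot go below p = 0.0556 or 0.111. TIL sharing was 26.6 by amino acid sequence, 26.3 by unique rearrangements (exact permutation p = 0.037 for both) and 27.8 without the replicate block. The block changed no other call. Causes were not tested. Few TCRBV19-01 rearrangements in TILs, 125 in the smallest library, limit the precision.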
